A study of Mus musculus with 8 samples.

Results

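The lysosomal enzymes and proton pump are followed here as 41 named genes, found by their symbols among the 32285 genes of the count tables, and all 41 were present. They encode 9 cysteine proteases, 3 aspartic and serine proteases, 6 glycosidases, 6 proteins of lipid handling, 2 acid phosphatases, 6 subunits of the proton pump, 6 membrane proteins and 3 regulators. The cells were CD45+ immune cells sorted from the retina and choroid of female mice aged 10 to 12 weeks, in which each cell's transcripts were counted as unique molecular identifiers (UMIs), together with DNA tags of 87 antibodies. The 4 conditions crossed genotype (WT or Nr4a1-/-) with treatment (control or laser). A control condition came from 22 mice of a genotype without injury, and a laser condition from 11 to 12 mice whose eyes had each received 8 burns, taken on day 3, the injury used to model choroidal neovascularization (CNV). The WT mice were C57BL/6J and the Nr4a1-/- mice carried a germline deletion allele kept on a mixed B6 and 129S2 stock, so the deletion was present in every cell of the animal, and the stock and the genotype cannot be told apart. Eyes were pooled within a condition, and each condition was 1 RNA library, so the comparisons of laser with control and of the genotypes have no replicates and no p-values.

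Lysosomes are acidic organelles that break down material taken up by phagocytosis and endocytosis, as well as the cell's own worn parts. The vacuolar proton pump acidifies the lumen, in which cathepsins and other hydrolases become active, while heavily glycosylated membrane proteins line the inner face. Transcription factors of the Tfeb and Mitf family bind short motifs around CACGTG near the start sites of many lysosomal genes, and microglia and macrophages, which clear debris in the eye, are known for large lysosomes.

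Promoter sequences are shown for members that carry such a motif. Whether a motif bears on the levels described below was not tested. RefSeq start sites (GRCm38.p6) gave a window from 250 bases before to 50 bases after the start for 35 members and for 27025 genes in all, and Ctsb, Ctsh, Atp6v0d2, Atp6v1b2, Npc1 and Asah1 had no window. Both strands were searched. CACGTG was found in 12 of the 35 members (34.3%), against 8.09% of all genes with a window. Its 8-base palindrome TCACGTGA, which contains CACGTG, was in 6 members (17.1%) against 1.12% of genes. The related TCATGTGA, or TCACATGA on the other strand, was in 7 members (20%) against 1.15% of genes. A match describes letters in a window and not a bound site. For each of the 6 members with TCACGTGA, 1 site is given in GRCm38 coordinates, 5′ to 3′ on the gene's strand, with the motif in capitals. Ctsa and Gla each have another such site that is not shown.
Atp6v0d1, chr8:105566051-105566078 (minus strand): cctactgcggTCACGTGAgacgcggtgc
Atp6v1a, chr16:44139374-44139401 (minus strand): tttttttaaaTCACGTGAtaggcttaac
Ctsa, chr2:164833750-164833777 (plus strand): gagcaaactgTCACGTGAtgcagatgct
Ctsd, chr7:142387909-142387936 (minus strand): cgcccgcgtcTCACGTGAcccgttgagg
Gla, chrX:134601183-134601210 (minus strand): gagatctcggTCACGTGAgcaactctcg
Mcoln1, chr8:3500463-3500490 (plus strand): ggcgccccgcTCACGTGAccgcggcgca

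Of the 7 members with TCATGTGA, 1 site each is given in the same way for the 6 that lack TCACGTGA. Gla carries both motifs.
Acp5, chr9:22130672-22130699 (minus strand): agtccagtgcTCACATGAcccaagggga
Atp6v0c, chr17:24169450-24169477 (minus strand): cggggacagaTCATGTGAcgcgagcgcg
Ctss, chr3:95526794-95526821 (plus strand): tgtggatgctTCATGTGAcaagctccga
Grn, chr11:102430286-102430313 (plus strand): gattctctaaTCACATGAtccctagaaa
Ppt1, chr4:122836230-122836257 (plus strand): gtccccgcggTCATGTGAttgctaagat
Tpp1, chr7:105752214-105752241 (minus strand): cagaccatgcTCATGTGActtatcacat
The site of Atp6v0d1 spans its start site region at -4 bases from the start, and those of Ctsd and Atp6v1a lie at -99 and -132 bases. The farthest of those printed upstream was that of Grn, at -211 bases, and that of Ctss lay in the transcribed part at 18 bases.

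Lineages were rebuilt by clustering the cells on RNA and tags together, with the 41 members, 39 further lysosomal genes and the CD68 and CD107a tags left out, so no member's own value placed a cell. Of 11223 cells that passed the filters, 9610 fell in 16 lineages, 13 of phagocytes and 3 of lymphocytes, and the other 1613 were not used. Each name stands for cells like the named type. The check against markers found that 9 of 9 microglia markers, 8 of 8 resident macrophage markers, 7 of 7 classical monocyte markers and 6 of 6 markers of monocyte-derived macrophages B (MDM-B: Spp1, Vegfa, Gpnmb, Fabp5, Arg1, Mmp12) were each detected in at least 10% of the lineage's cells, whereas neutrophils met 6 of 7 markers and cDC2, the type 2 conventional dendritic cells, 4 of 5. MDM-A met 5 of 5 markers, led by chemokine genes and Ccr2. The Bmp2 and Ms4a7 macrophages each met 8 of 8 general macrophage markers and are called by a leading gene, and the Lyz1 Retnla phagocytes, which met only 3 of 5 cDC2 markers, are called by their leading genes alone. MDM-A, MDM-B and migratory dendritic cells (DCs) reached the minimum of 20 cells only in the laser libraries, and non-classical monocytes, which depend on Nr4a1, only in the WT libraries (210 and 136 cells, against 2 and 1 in Nr4a1-/- control and laser). RNA depth ran from 7848548 UMIs in Nr4a1-/- laser to 38052948 in WT laser, with 3676 to 7618 UMIs per cell at the median, and 17 barcodes (34 cells) were shared by more than 1 library. Nr4a1 itself was at 312 and 271 CPM in WT control and laser and at 89.8 and 55.5 CPM in Nr4a1-/- control and laser over the cells of the 16 lineages, lower but not 0 in the deleted mice, and 3′ counts need not come from the deleted part of the gene. Levels are in CPM, the gene's UMIs per 1000000 UMIs summed over a lineage in a library, and are given in the order WT control, WT laser, Nr4a1-/- control, Nr4a1-/- laser, and a mean ± SD over libraries holds all conditions with at least 20 cells. Levels of different genes are not compared, because 3′ UMI counts are not calibrated between genes.

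Summed over the 41 genes, lysosomal transcripts made up the highest share of all UMIs in MDM-B, at 4.02% in WT laser and 3.63% in Nr4a1-/- laser. In MDM-A the share was 2.21% in WT laser and 2.13% in Nr4a1-/- laser, and in microglia it was 1.95%, 2.31%, 2.10% and 2.36%. The 2 MDM-B libraries lay above every library of every other lineage. Resident macrophages, which line the choroid and vessels, held 1.55%, 1.99%, 1.74% and 2.00%, and the Bmp2 and Ms4a7 macrophages ran between 1.48% and 1.95%. Classical monocytes, the blood cells from which MDMs arise, held 1.17%, 1.5%, 1.26% and 1.41%. Non-classical monocytes lay below them in both WT libraries, at 0.915% in WT control and 1.05% in WT laser. The lowest shares among phagocytes were those of the DCs and neutrophils: cDC2 held 0.622%, 0.826%, 0.670% and 0.842% and cDC1, the type 1 conventional DCs, 0.647%, 0.690%, 0.619% and 0.717%, and their ranges overlapped. Lymphocytes held between 0.169% and 0.279%.

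**Figure D1:**
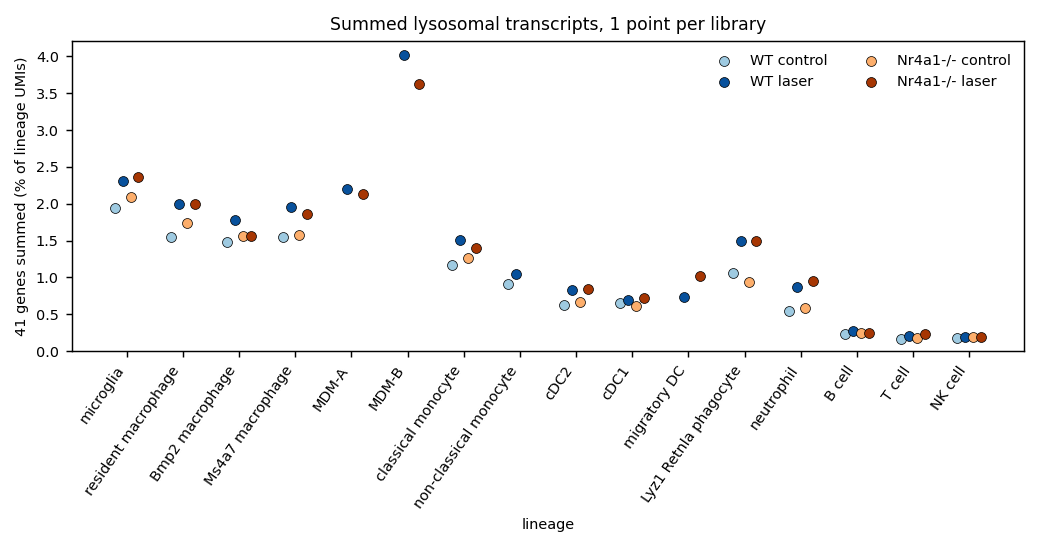
UMIs of the 41 lysosomal genes as a percent of all UMIs (vertical axis) in each of the 16 lineages (horizontal axis), with 1 point per library coloured by condition. MDM-B stand highest at 4.02% and 3.63%, and B, T and NK cells stay at or under 0.279%.

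Among the cysteine proteases, 7 of the 9 had their highest mean in MDM-B. Ctsb, which cuts proteins from inside and from their ends, was at 6686 CPM in WT laser and 5661 CPM in Nr4a1-/- laser, above MDM-A at 3584 CPM in WT laser and 3769 CPM in Nr4a1-/- laser. The same gene was at 1190.2, 1746, 1066 and 1996 CPM in microglia and 841, 1453, 756 and 899 CPM in classical monocytes, so all its microglial libraries lay under both MDM libraries. Ctsl, Ctss, which trims the invariant chain of MHC class II, and Lgmn, the asparaginyl endopeptidase, overlapped between microglia and MDM-B, and for example Ctsl was 1281 ± 84.2 CPM (SD, n = 2) in MDM-B and 1271 ± 198 CPM (SD, n = 4) in microglia. Ctsz, a carboxypeptidase, was higher in MDM-B, at 1595 CPM in WT laser and 1609.7 CPM in Nr4a1-/- laser, than in any microglia library, where it reached 1372 CPM. Ctsc, which activates the serine proteases of granules, was highest in Bmp2 macrophages at 1639 ± 216 CPM (SD, n = 4), a range that overlapped that of resident macrophages.

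Ctsf had one of the widest spans of all members. It was at 76.6, 85.5, 102 and 74.8 CPM in microglia, 37.5, 41.2, 41.5 and 27.9 CPM in Bmp2 macrophages and 27.7, 24.8, 25.0 and 28.4 CPM in resident macrophages, and the microglial values lay above both. No Ctsf UMI was found in cDC1, whose floor of 3 counts over the group puts microglia at least 68.6-fold higher. Ctsk, the collagen-degrading cathepsin of osteoclasts, was rare, with 169 UMIs in all lineages together. It was at 28.7 CPM in WT laser and 36.1 CPM in Nr4a1-/- laser in MDM-B and 7.54 CPM in WT laser and 9.64 CPM in Nr4a1-/- laser in MDM-A, and no UMI was counted in Ms4a7 macrophages, at least 29.6-fold below MDM-B by the same floor. Ctsh, an aminopeptidase, was nearly level in MDM-B and migratory DCs, at 764 and 688 CPM.

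Ctsd, the main aspartic protease of the lysosome, spanned 246-fold over the phagocytes. It was at 5219 CPM in WT laser and 5195 CPM in Nr4a1-/- laser in MDM-B, and at 2632, 2182, 2611 and 3227 CPM in microglia. In classical monocytes Ctsd was at 188, 402, 220.1 and 284 CPM, and in cDC1 at 9.70, 33.3, 13.1 and 28.7 CPM. All microglial libraries thus lay between those of MDM-B and those of classical monocytes. Ctsa, the serine carboxypeptidase that also shields Neu1 and Glb1, was highest in MDM-B at 509 CPM in WT laser and 423 CPM in Nr4a1-/- laser. Tpp1, a tripeptidyl peptidase, was 161 ± 26.2 CPM (SD, n = 2) in MDM-B and 122 ± 21.2 CPM (SD, n = 4) in resident macrophages, with overlapping libraries.

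The glycosidases, which trim sugars from glycoproteins and glycolipids, split between lineages. Gusb, Gla and Naglu were highest in MDM-B, at means of 209, 157 and 60.2 CPM, and each lay above all libraries of the next lineage. Hexa and Glb1 had their highest means in resident macrophages, at 613 ± 88.1 CPM and 57.5 ± 7.09 CPM (SD, n = 4), and for Hexa the libraries overlapped those of MDM-B. Neu1, a sialidase, was highest in neutrophils, at 59.8, 98.3, 80.9 and 99.9 CPM, and overlapped the Bmp2 macrophages, at 86.0, 73.2, 65.8 and 66.9 CPM.

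In lipid handling, Psap, the precursor of the saposins, reached 4251 CPM in WT laser and 3462 CPM in Nr4a1-/- laser in MDM-B, and Lipa, which frees cholesterol and fatty acids, was 296 CPM there against 226 CPM in MDM-A. Npc1, the membrane exporter of cholesterol, was highest in MDM-B as well, at 154 CPM, while Npc2, its soluble partner, was level in MDM-B and classical monocytes, at 1275 and 1269 CPM. Ppt1, which removes palmitate from proteins, stood apart from every other member. It was at 855, 861, 792 and 951 CPM in cDC1 and at 171, 169, 270.5 and 194 CPM in neutrophils, the next lineage, and the libraries of both lineages did not overlap. Asah1, the acid ceramidase, had the narrowest span over phagocytes, 2.98-fold between Bmp2 macrophages at 202 CPM and neutrophils at 67.7 CPM.

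For the acid phosphatases, Acp5, the tartrate-resistant enzyme of osteoclasts and activated macrophages, was at 347 CPM in WT laser and 391 CPM in Nr4a1-/- laser in MDM-B and at 9.18, 10.5, 4.72 and 6.24 CPM in microglia, a span of 48.2-fold. T cells also carried Acp5, at 177, 118, 170.2 and 103 CPM, above all microglial libraries. Acp2 was highest in microglia, at 102 CPM, with MDM-A libraries in the same range.

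The proton pump is built from a membrane part, V0, and a peripheral part, V1. Its subunit d has a widespread form, Atp6v0d1, and a second form, Atp6v0d2, known from osteoclasts and macrophages. Atp6v0d2 was at 121 CPM in WT laser and 135 CPM in Nr4a1-/- laser in MDM-B and 41.5 CPM in WT laser and 28.9 CPM in Nr4a1-/- laser in MDM-A. It was at 10.3, 8.52, 17.9 and 40.2 CPM in resident macrophages, and no UMI was counted in non-classical monocytes or cDC1, which puts MDM-B at least 101-fold and at least 104-fold higher by the floor of 3 counts over the group. Atp6v0d1 spanned only 3.14-fold, from 114 CPM in cDC1 to 359 CPM in Bmp2 macrophages. Of the other subunits, Atp6v1a and Atp6v1b2, the A and B subunits of the V1 ring, had their highest means in Bmp2 macrophages, at 604 and 247 CPM, overlapping resident macrophages. Atp6v0c, which forms the rotating ring of V0, and the accessory subunit Atp6ap1 were highest in MDM-B, at 1383 and 141 CPM.

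Among the membrane proteins, Cd63, a tetraspanin of late endosomes and secretory granules, spanned 198-fold. It was at 1728 CPM in WT laser and 1989 CPM in Nr4a1-/- laser in MDM-B and 911 CPM in WT laser and 1049 CPM in Nr4a1-/- laser in migratory DCs. In cDC2 it was at 12.8, 99.5, 19.1 and 182 CPM and in cDC1 at 14.6, 8.33, 1.87 and 12.8 CPM. Cd68, a macrophage glycoprotein, was at 1025 CPM in WT laser and 985 CPM in Nr4a1-/- laser in MDM-B, above MDM-A at 579.8 CPM in WT laser and 489 CPM in Nr4a1-/- laser. Lamp1 was highest in MDM-B at 1275 CPM and Lamp2 in Bmp2 macrophages at 704 CPM, and the latter overlapped resident macrophages. Scarb2, the carrier of glucocerebrosidase, was level in non-classical monocytes and MDM-B, at 204 and 203 CPM, and spanned 3.60-fold. Mcoln1, the lysosomal calcium channel, had 699 UMIs in all and a highest mean of 21.6 ± 7.11 CPM (SD, n = 4) in resident macrophages.

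The regulators differed from one another. Tfeb, a transcription factor that switches on lysosomal genes, was highest in neutrophils, at 74.1, 81.4, 94.8 and 84.1 CPM, and next in non-classical monocytes, at 67.9 CPM in WT control and 75.7 CPM in WT laser, with overlapping libraries. Its relative Mitf was highest in the Bmp2 and resident macrophages, both at 271 CPM, and was at 16.2, 13.5, 16.8 and 28.7 CPM in cDC1. Grn, which encodes progranulin, was 1052 ± 113 CPM (SD, n = 2) in MDM-B and 859 ± 210.4 CPM (SD, n = 4) in resident macrophages. Over all members, the highest mean was found in MDM-B for 25 genes, in Bmp2 macrophages for 7, in resident macrophages for 3, in microglia and neutrophils for 2 each, and in cDC1 and non-classical monocytes for 1 each. MDM-B were measured only after laser, whereas most other lineages also hold control libraries, so these orders mix lineage with treatment. The tests that follow include a library term, which takes out only what the lineages of a library share. A response to laser that differs between lineages stays in the comparisons of MDM-A, MDM-B and migratory DCs with monocytes, which also hold control libraries.

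**Figure D2:**
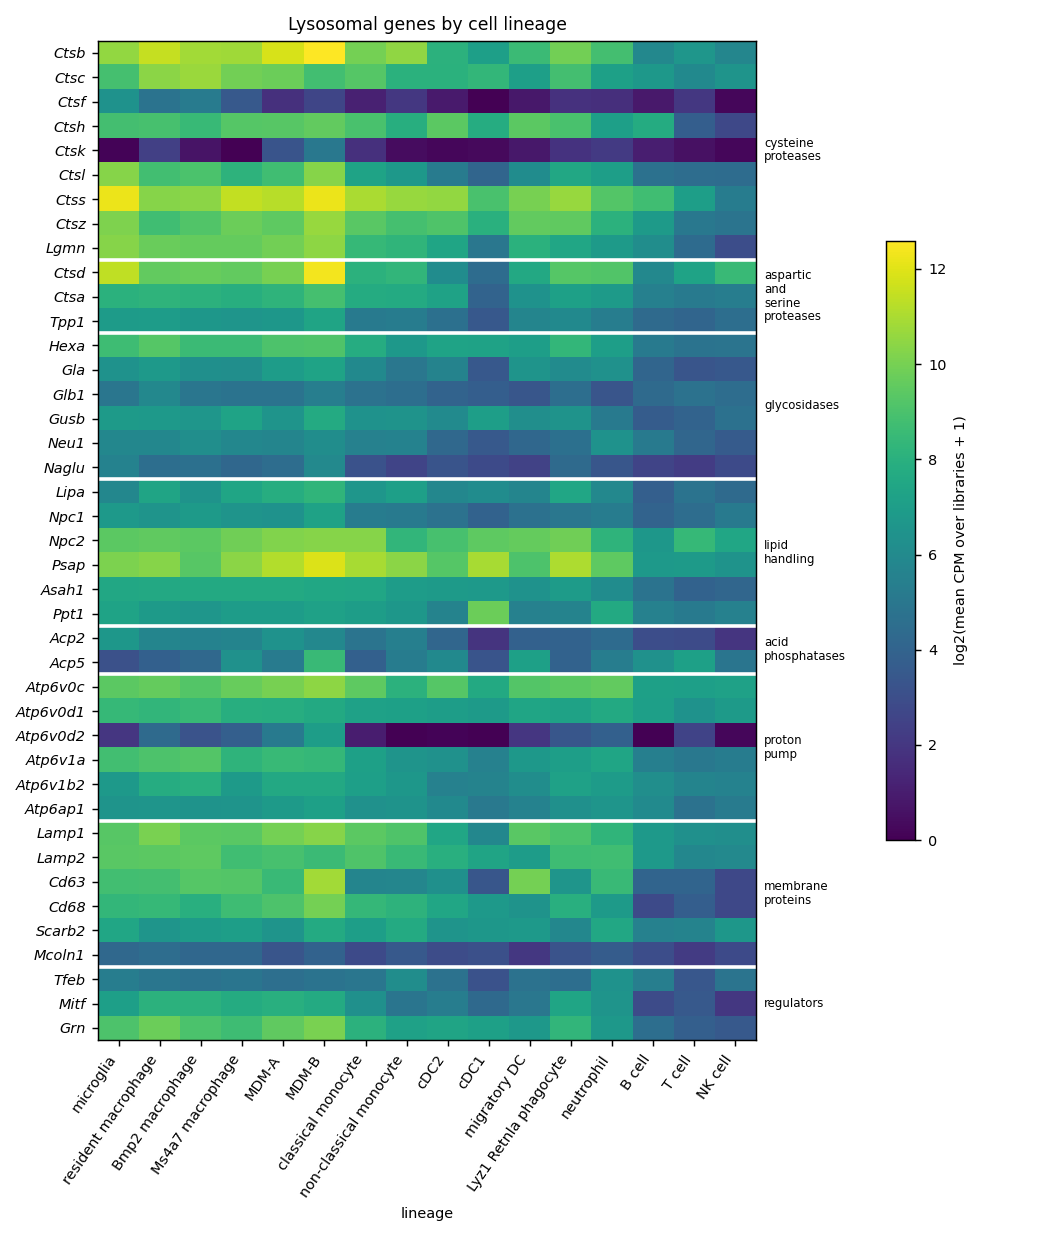
Mean level of each of the 41 genes (rows, grouped by role) in each of the 16 lineages (columns), coloured by log2(mean CPM over libraries + 1). The MDM-B column is the brightest for 25 genes, Ppt1 stands out in cDC1, Ctsf in microglia, and the 3 lymphocyte columns are dark for most genes.

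Whether lineages differed in lysosomal transcripts was tested on UMIs summed per lineage and library, with 11417 genes in 1 edgeR quasi-likelihood fit with terms for lineage and library, and all 41 members passed the filter on low counts. Changes are log2 fold changes with their SE, and adjusted p-values are by Benjamini-Hochberg within a comparison at a threshold of 0.05. Each condition was 1 library, so the spread behind these SEs and p-values is how lineages vary across conditions, pooled over lineages. It is not the spread between replicate pools of mice. Lineages were formed from other genes of the same cells, so a high share of all genes differs by construction and each count stands beside that share. Except where stated, each lineage was set against classical monocytes, and these comparisons share that reference.

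MDM-B had the most members called higher among the comparisons with classical monocytes. In MDM-B, 29 of the 41 members were higher and 1 lower, where 10.6% and 13.1% of all genes tested were called higher and lower, and the members' median change was 1.14 on the log2 scale, beside -0.01 over all genes. The higher members were led by Atp6v0d2 at 5.77 ± 0.81, Cd63 at 4.68 ± 0.48, Acp5 at 4.32 ± 0.45 and Ctsd at 3.90 ± 0.31 (SE, edgeR adjusted p from 1.3e-13 to 5.05e-07). All 3 aspartic and serine proteases and both acid phosphatases were higher, as were 6 of 9 cysteine proteases, 5 of 6 membrane proteins and 4 of 6 proton pump subunits. In the libraries, Acp5 was at 7.44, 23.5, 3.29 and 20.2 CPM in classical monocytes against 347 CPM in WT laser and 391 CPM in Nr4a1-/- laser in MDM-B, and Cd63 at 16.6, 105, 21.7 and 64.2 CPM against 1728 CPM in WT laser and 1989 CPM in Nr4a1-/- laser. MDM-B lay above all monocyte libraries in both genes. Lamp2, at -0.56 ± 0.20 (SE, edgeR adjusted p = 0.0334), was the sole member lower, and that call was lost with DESeq2 size factors, with no filter on low counts, and without the Nr4a1-/- laser, WT control or WT laser library. Of the 39 further lysosomal genes, 20 were higher and 1 lower, with Igf2r, a receptor that carries new enzymes to lysosomes, at 4.36 ± 0.45 and Gaa, the acid glucosidase, at 2.00 ± 0.34 (SE, edgeR adjusted p = 7.84e-06).

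MDM-A showed a smaller shift in the same direction. Here 20 of the 41 members were higher and 1 lower, where 10.4% and 8.79% of all genes tested were called higher and lower, and the members' median change was 0.73 on the log2 scale, beside -0.01 over all genes. The largest increases were those of Atp6v0d2 at 4.21 ± 0.89, Cd63 at 2.53 ± 0.47, Mitf at 1.71 ± 0.25 and Ctsd at 1.69 ± 0.31 (SE, edgeR adjusted p from 8.58e-07 to 0.000438). Only Scarb2 was lower, at -0.60 ± 0.20 (SE, edgeR adjusted p = 0.0232), a call lost without the WT control or WT laser library. Of the further lysosomal genes, 12 were higher and 2 lower.

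The MDM populations were also set against each other. Relative to MDM-A, 10 of the 41 members were higher and 1 lower, where 4.83% and 8.16% of all genes tested were called higher and lower, and the members' median change was 0.37 on the log2 scale, beside -0.01 over all genes. Those higher were led by Acp5 at 3.34 ± 0.53, Ctsd at 2.21 ± 0.37, Cd63 at 2.15 ± 0.54 and Ctsk at 1.82 ± 0.49 (SE, edgeR adjusted p from 8.26e-06 to 0.00872). Acp5 was at 347 CPM in WT laser and 391 CPM in Nr4a1-/- laser in MDM-B and at 25.1 CPM in WT laser and 48.2 CPM in Nr4a1-/- laser in MDM-A, and both MDM-B libraries lay above both MDM-A libraries. Ctsc alone was lower, at -1.11 ± 0.26 (SE, edgeR adjusted p = 0.00179). None of the 6 proton pump subunits, 6 lipid handling genes or 3 regulators was called between the populations, which does not show that they were alike, since Atp6v0d2, the pump subunit with the widest span, differed by an uncalled 1.56 ± 0.67 (SE, edgeR adjusted p = 0.126). The 10 calls rested on both laser libraries: 3 members were called without Nr4a1-/- laser and 4 without WT laser, where 1 library per MDM population was left. Assigning each cell by its markers gave 23 higher members.

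Tissue macrophages had members in both directions. In microglia, 17 of the 41 members were higher and 6 lower, where 31.1% and 28.0% of all genes tested were called higher and lower, and the members' median change was 0.37 on the log2 scale, beside 0.08 over all genes. The higher members were led by Ctsf at 5.71 ± 0.43, Ctsd at 3.27 ± 0.28, Cd63 at 3.13 ± 0.42 and Ctsl at 2.93 ± 0.31 (SE, edgeR adjusted p from 9.56e-16 to 9.15e-09), and the lower ones by Ctsk at -3.41 ± 0.77, Npc2 at -0.99 ± 0.15, Psap at -0.94 ± 0.18 and Lipa at -0.91 ± 0.21 (SE, edgeR adjusted p from 9.33e-08 to 0.000178). Ctsf was at 2.29, 1.24, 1.32 and 0 CPM in classical monocytes against 76.6, 85.5, 102 and 74.8 CPM in microglia, with no overlap. The further genes gave a like split, in which 18 were higher and 7 lower, with Arsb, which acts on dermatan sulfate, at 3.99 ± 0.28 and Tfec, a relative of Mitf, at -2.75 ± 0.47 (SE, edgeR adjusted p = 1.66e-06).

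In resident macrophages, 23 of the 41 members were higher and 5 lower, where 23.5% and 21.7% of all genes tested were called higher and lower, and the members' median change was 0.70 on the log2 scale, beside 0.03 over all genes. The higher genes were led by Ctsf at 4.05 ± 0.51, Cd63 at 3.35 ± 0.43, Atp6v0d2 at 3.21 ± 0.93 and Mcoln1 at 1.90 ± 0.36 (SE, edgeR adjusted p from 5.65e-09 to 0.00405), and lower were Npc2 at -0.87 ± 0.15, Ctss at -0.81 ± 0.17, Psap at -0.77 ± 0.18 and Ctsz at -0.72 ± 0.14 (SE, edgeR adjusted p from 2.66e-06 to 0.000375). In Bmp2 macrophages, 20 of the 41 members were higher and 4 lower, where 25.0% and 23.9% of all genes tested were called higher and lower, and the members' median change was 0.30 on the log2 scale, beside 0.03 over all genes. Ctsf, Cd63 and Atp6v0d2 led again, at 4.61 ± 0.50, 3.83 ± 0.43 and 2.70 ± 1.03, followed by Atp6v1a at 2.04 ± 0.17 (SE, edgeR adjusted p = 4.94e-14), and 4 of 6 proton pump subunits were higher in both lineages. Atp6v0d2 in Bmp2 macrophages lost its call by DESeq2 and without the WT control library. Lower in Bmp2 macrophages were Psap at -1.71 ± 0.19, Npc2 at -0.93 ± 0.15, Ctss at -0.64 ± 0.17 and Ctsh at -0.53 ± 0.19 (SE, edgeR adjusted p from 5.81e-11 to 0.0151).

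Among the Ms4a7 macrophages, 19 of the 41 members were higher and 4 lower, where 14.7% and 16.2% of all genes tested were called higher and lower, and the members' median change was 0.59 on the log2 scale, beside -0.02 over all genes. These were led by Cd63 at 3.77 ± 0.44, Ctsf at 2.49 ± 0.67, Acp5 at 2.43 ± 0.45 and Mcoln1 at 1.52 ± 0.40 (SE, edgeR adjusted p from 1.18e-09 to 0.00327). The lower members were Ctsk at -4.66 ± 1.28, Psap at -0.62 ± 0.18, Npc2 at -0.53 ± 0.15 and Lamp2 at -0.42 ± 0.16 (SE, edgeR adjusted p from 0.00394 to 0.0358), and only 1 to 3 of the 4 were called when a library was left out, with 1 without WT control. Psap and Npc2 were thus lower, and Cd63 and Ctsf higher, than in monocytes in microglia and in resident, Bmp2 and Ms4a7 macrophages, and these comparisons share the monocyte libraries. Cysteine proteases went both ways, with 5 higher and 2 lower in microglia, resident and Bmp2 macrophages each, and 4 higher and 1 lower in Ms4a7 macrophages. Over the further genes, 20 were higher and 9 lower in resident macrophages, 18 were higher and 7 lower in Bmp2 macrophages and 13 were higher and 2 lower in Ms4a7 macrophages.

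Members called lower outnumbered those called higher in the dendritic cells. In cDC1, 2 of the 41 members were higher and 27 lower, where 16.7% and 19.5% of all genes tested were called higher and lower, and the members' median change was -1.52 on the log2 scale, beside -0.06 over all genes. The lower members were led by Ctsa at -3.99 ± 0.24, Ctsd at -3.59 ± 0.35, Lamp1 at -3.54 ± 0.17 and Lgmn at -3.40 ± 0.23 (SE, edgeR adjusted p from 6.01e-22 to 3.39e-12), and they included all 3 aspartic and serine proteases, all 3 regulators, 7 of 9 cysteine proteases and 4 of 6 proton pump subunits. Lgmn was at 22.6, 39.6, 18.7 and 41.5 CPM in cDC1 against 218, 484, 335 and 338 CPM in classical monocytes. The members higher were Ppt1, at 2.87 ± 0.18 (SE, edgeR adjusted p = 2.01e-18), and Gusb, which cleaves glucuronic acid from sugar chains, at 0.80 ± 0.19 (SE, edgeR adjusted p = 0.000413). Ppt1 was at 109, 129, 119 and 158 CPM in monocytes, all below the lowest cDC1 library. Over the further genes, 6 were higher and 12 lower.

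In cDC2, 2 of the 41 members were higher and 21 lower, where 14.3% and 15.9% of all genes tested were called higher and lower, and the members' median change was -0.52 on the log2 scale, beside -0.02 over all genes. The lower members were led by Ctsk at -2.29 ± 0.79, Ctsl at -1.98 ± 0.35, Ctsd at -1.92 ± 0.29 and Lamp1 at -1.91 ± 0.15 (SE, edgeR adjusted p from 1.53e-14 to 0.0219), and 5 of 6 lipid handling genes were among the lower. When each cell was assigned by its markers, 12 members were lower in cDC2. Those higher were Acp5 at 2.25 ± 0.44 and Ctsh at 0.49 ± 0.18 (SE, edgeR adjusted p from 6.1e-05 to 0.0344). In migratory DCs, which reached 20 cells only in the laser libraries, 3 of the 41 members were higher and 19 lower, where 13% and 15.7% of all genes tested were called higher and lower, and the members' median change was -0.99 on the log2 scale, beside -0.16 over all genes. Higher were Cd63 at 3.81 ± 0.48, Acp5 at 2.72 ± 0.58 and Gla at 0.79 ± 0.29 (SE, edgeR adjusted p from 8.1e-09 to 0.0341), and the lower were led by Cd68 at -2.27 ± 0.34, Lamp2 at -2.23 ± 0.24, Ctsc at -2.19 ± 0.28 and Psap at -2.04 ± 0.25 (SE, edgeR adjusted p from 1.86e-10 to 5.59e-07). The count of lower members in migratory DCs fell from 19 to 9 without the WT laser library. Over the further genes, 5 were higher and 12 lower in cDC2 and 2 were higher and 12 lower in migratory DCs.

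Non-classical monocytes, which patrol vessels and were measured in WT mice only, also held less. There, 2 of the 41 members were higher and 14 lower, where 9.9% and 11.3% of all genes tested were called higher and lower, and the members' median change was -0.41 on the log2 scale, beside -0.02 over all genes. The lower members were led by Npc2 at -2.12 ± 0.20, Mitf at -1.48 ± 0.32, Atp6v0c at -1.45 ± 0.24 and Ctsc at -1.27 ± 0.24 (SE, edgeR adjusted p from 1.49e-11 to 0.000411). Tfeb and Scarb2 were the members higher, at 1.24 ± 0.24 (SE, edgeR adjusted p = 8.02e-05) and 0.53 ± 0.18 (SE, edgeR adjusted p = 0.0251). Leaving out WT control or WT laser, which leaves this lineage 1 library, gave 8 and 7 lower members in place of 14, and 1 higher in place of 2. Of the further genes, 4 were higher and 4 lower.

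For the Lyz1 Retnla phagocytes, 6 of the 41 members were higher and 9 lower, where 12.9% and 16.9% of all genes tested were called higher and lower, and the members' median change was 0.07 on the log2 scale, beside -0.08 over all genes. Higher were Naglu at 1.54 ± 0.33, Ctsd at 1.21 ± 0.26, Mitf at 1.11 ± 0.22 and Lipa at 0.91 ± 0.20 (SE, edgeR adjusted p from 8.04e-05 to 0.000301), and lower were Ppt1 at -1.38 ± 0.20, Scarb2 at -1.12 ± 0.17, Lgmn at -0.94 ± 0.18 and Neu1 at -0.84 ± 0.21 (SE, edgeR adjusted p from 3.64e-07 to 0.00166). The lower count ran from 4 to 7 when a library was left out, the fewest without Nr4a1-/- control. In neutrophils, 8 of the 41 members were higher and 18 lower, where 22.4% and 18.7% of all genes tested were called higher and lower, and the members' median change was -0.22 on the log2 scale, beside 0.05 over all genes. The higher members were led by Atp6v0d2 at 3.08 ± 0.96, Cd63 at 2.63 ± 0.43, Tfeb at 1.49 ± 0.21 and Ctsd at 1.12 ± 0.26 (SE, edgeR adjusted p from 5.7e-08 to 0.00849), and the lower by Npc2 at -2.19 ± 0.16, Ctsc at -2.18 ± 0.20, Ctsh at -1.92 ± 0.20 and Ctss at -1.84 ± 0.18 (SE, edgeR adjusted p from 3.2e-16 to 3.97e-11). Atp6v0d2 in neutrophils lost its call by DESeq2 and without the WT laser library. Cysteine proteases were the group with most lower members in neutrophils, 6 of 9, while 2 of 6 proton pump subunits were higher. Of the further genes, 5 were higher and 7 lower in Lyz1 Retnla phagocytes and 8 were higher and 7 lower in neutrophils.

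All mononuclear phagocytes together were set against B, T and NK cells. 37 of the 41 members were higher and 1 lower, where 31.2% and 39.3% of all genes tested were called higher and lower, and the members' median change was 2.67 on the log2 scale, beside -0.05 over all genes. The higher members were led by Cd68 at 5.55 ± 0.17, Grn at 4.75 ± 0.13, Ctsh at 4.49 ± 0.13 and Lgmn at 4.34 ± 0.12 (SE, edgeR adjusted p from 2.9e-35 to 5.34e-33). All glycosidases, lipid handling genes, membrane proteins, regulators and the 3 aspartic and serine proteases were higher. Acp5 was the sole member higher in lymphocytes, at -1.25 ± 0.20 (SE, edgeR adjusted p = 3.78e-07). Cd68 was at 2.32, 13.1, 3.25 and 30.8 CPM in T cells. The further genes followed, in that 32 were higher and 6 lower.

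**Figure D3:**
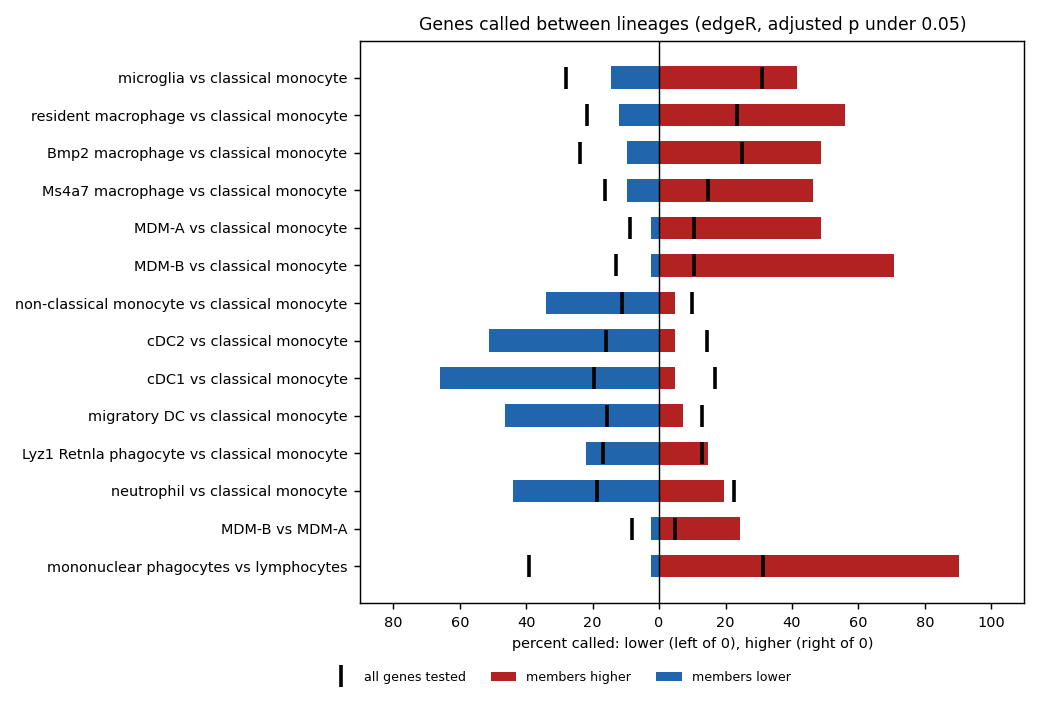
Percent of the 41 members called higher (red, right of 0) or lower (blue, left of 0) in each of 14 lineage comparisons (rows), with black ticks for the percent of all 11417 genes called in the same direction, by edgeR at an adjusted p under 0.05. The red bar for MDM-B against classical monocytes (29 of 41) ends far to the right of its tick at 10.6%, the bars for microglia lie closer to their ticks, and cDC1 has the longest blue bar (27 of 41).

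The response to laser was described in 12 lineages with at least 20 cells in all 4 libraries, as the ratio of CPM in laser to CPM in control within each genotype. A member counts as past the fold when it was at least 1.5-fold higher or lower and the higher library of each pair held 20 UMIs or more, and each ratio has an exact 95% interval for counting error only. With 1 library per condition these ratios carry no test, and the share of all genes past the same fold in both genotypes is given beside each count. The names of the deposited tables of WT control, WT laser and Nr4a1-/- laser share a leading number, and that of Nr4a1-/- control has a different one. The labels do not say what this number stands for. For Nr4a1-/- the laser and whatever the number marks cannot be told apart. In sums over a lineage, a change in the mix of cells within it and a change within each cell cannot be told apart either. Markers of macrophages (8 genes) and of MDM-B (6 genes) are given as summed CPM beside a lineage's result where they were higher with laser in both genotypes, and in the 12 lineages at most 2 of the 8 and 3 of the 6 were at 0 in a library.

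In cDC2, 10 of 32 members with at least 20 UMIs in both pairs were past the fold upward in both genotypes, against 7.14% of all genes. Acp5 was at 6.39, 91.8, 19.1 and 129 CPM, a ratio of 14.4-fold (4.86 to 70.1) in WT and 6.79-fold (3.62 to 14.1) in Nr4a1-/-. Cd63 was at 12.8, 99.5, 19.1 and 182 CPM, a ratio of 7.78-fold (3.53 to 21.4) in WT and 9.55-fold (5.16 to 19.6) in Nr4a1-/-. Both laser libraries lay above both control libraries for these genes. Ctsl was 2.82-fold (1.5 to 5.98) in WT and 2.26-fold (1.14 to 4.80) in Nr4a1-/-, and Ctsd was 6.58-fold (3.15 to 16.5) in WT and 2.01-fold (1.31 to 3.16) in Nr4a1-/-. Grn, Atp6v0c, Ctss, Lipa, Ppt1 and Tpp1 made up the rest, with ratios from 1.72 to 4.75. The median log2 ratio of members was 0.38 in WT and 0.25 in Nr4a1-/-, beside 0.07 and -0.04 for all genes. The summed level of 8 macrophage markers in cDC2 was 305 and 990.4 CPM in WT control and laser, and 774 and 1074 CPM in Nr4a1-/- control and laser and that of 6 MDM-B markers was 136 and 311 CPM in WT control and laser, and 190.5 and 199 CPM in Nr4a1-/- control and laser, and their part in the result was not tested. When each cell was instead assigned by its markers, 5 members were past the fold.

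The Lyz1 Retnla phagocytes gave the same number over a lower background. There, 10 of 30 members with at least 20 UMIs were higher in both genotypes, against 1.44% of all genes. Cd63 was at 36.0, 153, 7.61 and 176 CPM, a ratio of 4.24-fold (2.90 to 6.41) in WT and 23.1-fold (9.37 to 74.0) in Nr4a1-/-. Ctsl was at 54.6, 279.7, 39.6 and 365 CPM, a ratio of 5.12-fold (3.78 to 7.09) in WT and 9.21-fold (5.99 to 14.7) in Nr4a1-/-. The control libraries held 31 and 5 UMIs of Cd63, so the upper ratio has a wide interval. Ctsb was 1.98-fold (1.79 to 2.19) in WT and 3.04-fold (2.65 to 3.50) in Nr4a1-/-, and Ctss was 2.23-fold (2.08 to 2.40) in WT and 1.89-fold (1.69 to 2.12) in Nr4a1-/-. Ctsd, Cd68, Grn, Lgmn, Lipa and Tpp1 lay between 1.59-fold and 2.90-fold. The members' median log2 ratio was 0.45 in WT and 0.60 in Nr4a1-/-, beside -0.03 and -0.11 for all genes, and the summed share of members was 1.41-fold and 1.60-fold higher. The macrophage marker sum stood at 2779 and 3899.9 CPM in WT control and laser, and 1852 and 4965 CPM in Nr4a1-/- control and laser, the MDM-B marker sum at 194 and 888 CPM in WT control and laser, and 271 and 362 CPM in Nr4a1-/- control and laser, and their part in the result was not tested.

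In neutrophils, 7 of 29 members with at least 20 UMIs were higher in both genotypes, against 9.14% of all genes. Cd63 was at 92.5, 577, 148 and 678 CPM, a ratio of 6.24-fold (5.10 to 7.70) in WT and 4.58-fold (3.37 to 6.29) in Nr4a1-/-. Atp6v0c, the ring subunit of the pump, was at 349.9, 964, 437 and 1267 CPM, a ratio of 2.76-fold (2.46 to 3.10) in WT and 2.90-fold (2.39 to 3.53) in Nr4a1-/-. Every laser value of both genes lay above every control value. Grn was 1.86-fold (1.41 to 2.46) in WT and 2.36-fold (1.34 to 4.16) in Nr4a1-/-, and Hexa was 1.74-fold (1.32 to 2.29) in WT and 2.91-fold (1.84 to 4.63) in Nr4a1-/-. Cd68, Atp6v1a and Lamp1 were the others, with ratios from 1.56 to 2.17. The count depends on scaling: with totals scaled by trimmed mean of M-values (TMM), the median of all genes moved by -0.22 (log2) in WT and -0.50 in Nr4a1-/-, and 3 of the 7 (Atp6v0c, Cd63 and Grn) stayed past the fold. When the members were used in the clustering, 20 were. Macrophage markers in neutrophils summed to 969.9 and 2296 CPM in WT control and laser, and 1422 and 1172 CPM in Nr4a1-/- control and laser, so they were higher with laser in WT and lower in Nr4a1-/-. MDM-B markers there summed to 217 and 499 CPM in WT control and laser, and 194 and 652 CPM in Nr4a1-/- control and laser, higher with laser in both. The lineage's own 7 neutrophil markers were lower with laser in both genotypes. They summed to 62532 and 52240 CPM in WT control and laser, and 71626 and 26746 CPM in Nr4a1-/- control and laser. The part of any of these lists was not tested.

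**Figure D4:**
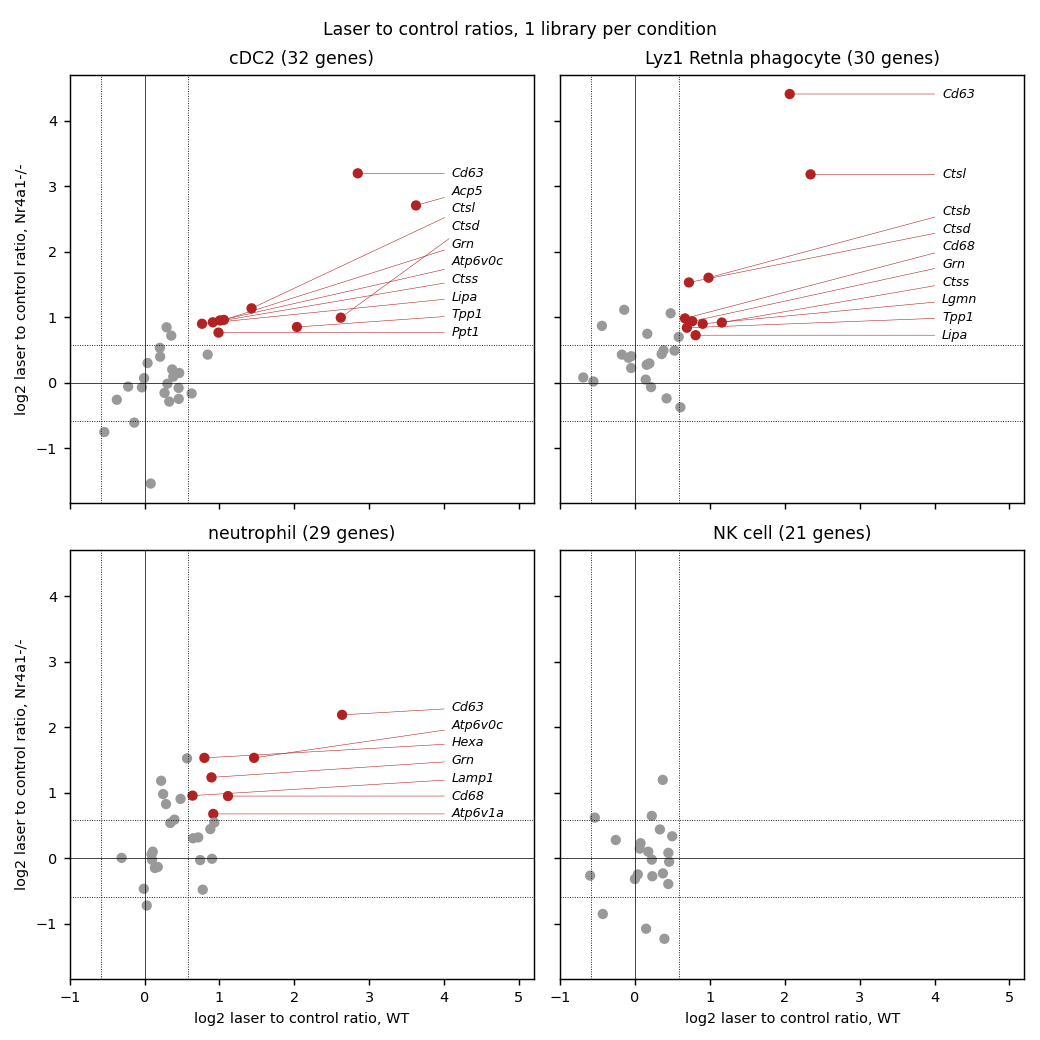
Log2 ratio of laser to control in WT (horizontal axis) and in Nr4a1-/- (vertical axis) for members with at least 20 UMIs in both pairs, 1 point per gene, in cDC2, Lyz1 Retnla phagocytes, neutrophils and NK cells. Red points are at least 1.5-fold higher in both genotypes (dotted lines mark 1.5-fold), 10, 10, 7 and 0 genes in that order, and Cd63 is among the farthest from 0 in the first 3 panels.

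Microglia and the tissue macrophages had few members past the fold in both genotypes. In microglia there were 4 of 37 members with at least 20 UMIs, against 5.84% of all genes. Cd63 was 1.95-fold (1.78 to 2.13) in WT and 2.21-fold (1.91 to 2.56) in Nr4a1-/-. Atp6v1b2 was 2.13-fold (1.80 to 2.53) in WT and 1.76-fold (1.28 to 2.41) in Nr4a1-/-. Both pairs thus had a pump subunit past the fold, and the others were Npc1, at 2.67-fold (2.25 to 3.18) in WT and 1.52-fold (1.09 to 2.09) in Nr4a1-/-, and Grn, at 1.58-fold (1.47 to 1.70) in WT and 1.52-fold (1.32 to 1.74) in Nr4a1-/-. With TMM-scaled totals 2 of the 4 stayed past the fold. The 6 MDM-B markers summed to 83.4 and 405 CPM in WT control and laser, and 41.8 and 4537 CPM in Nr4a1-/- control and laser in microglia, so the Nr4a1-/- laser library stood apart, the 8 macrophage markers to 12926 and 14580.3 CPM in WT control and laser, and 14058 and 15067 CPM in Nr4a1-/- control and laser, and their part was not tested. In resident macrophages Psap and Cd68 were past the fold (2 of 35, background 1.59%). Psap was at 846, 1519.7, 969.8 and 1640.0 CPM, a ratio of 1.80-fold (1.67 to 1.94) in WT and 1.69-fold (1.51 to 1.90) in Nr4a1-/-, and Cd68 was 1.60-fold (1.40 to 1.84) in WT and 1.64-fold (1.31 to 2.06) in Nr4a1-/-. MDM-B markers in resident macrophages summed to 34.9 and 194 CPM in WT control and laser, and 44.6 and 2257 CPM in Nr4a1-/- control and laser, and their part was not tested. With TMM-scaled totals 5 members were past the fold in resident macrophages, and 6 when each cell was assigned by its markers. In Bmp2 macrophages Ctsd and Grn were higher (2 of 35, background 2.4%). Ctsd was 2.50-fold (2.23 to 2.79) in WT and 1.59-fold (1.32 to 1.91) in Nr4a1-/-, and Grn was 1.95-fold (1.71 to 2.23) in WT and 1.51-fold (1.19 to 1.90) in Nr4a1-/-, though TMM-scaled totals left neither past the fold. The MDM-B marker sum in Bmp2 macrophages was 144 and 658 CPM in WT control and laser, and 240.4 and 346 CPM in Nr4a1-/- control and laser, and its part was not tested. Gla was lower in both, at 0.553-fold (0.369 to 0.818) in WT and 0.358-fold (0.150 to 0.737) in Nr4a1-/-, against a background of 2.14% for genes lower in both, and Naglu went opposite ways, at 1.69-fold (0.927 to 3.17) in WT and 0.389-fold (0.0441 to 1.60) in Nr4a1-/-. In Ms4a7 macrophages Acp5 and Ctsh were higher (2 of 33, below the background of 12.4%), with Acp5 at 27.2, 108, 21.7 and 167 CPM, a ratio of 3.95-fold (2.20 to 7.80) in WT and 7.71-fold (3.77 to 17.8) in Nr4a1-/-, and Ctsh at 1.54-fold (1.33 to 1.79) in WT and 1.54-fold (1.28 to 1.86) in Nr4a1-/-, and 6 members with TMM-scaled totals. Ctsh was not past the fold when the members were used in the clustering. MDM-B markers there summed to 511 and 1029 CPM in WT control and laser, and 359 and 1352 CPM in Nr4a1-/- control and laser, and their part was not tested.

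Classical monocytes had Cd63 and Lipa past the fold in both genotypes (2 of 35, background 2.0%). Cd63 was at 16.6, 105, 21.7 and 64.2 CPM, a ratio of 6.32-fold (4.29 to 9.63) in WT and 2.95-fold (1.78 to 4.90) in Nr4a1-/-, and Lipa was 1.61-fold (1.32 to 1.97) in WT and 1.57-fold (1.10 to 2.21) in Nr4a1-/-. The macrophage markers summed to 3778 and 9466 CPM in WT control and laser, and 3249 and 5672 CPM in Nr4a1-/- control and laser, and the MDM-B markers to 246 and 1029.7 CPM in WT control and laser, and 302 and 433 CPM in Nr4a1-/- control and laser, so both were higher with laser in both genotypes, and their part in these ratios was not tested. Lipa was not past the fold when the members were used in the clustering or when each cell was assigned by its markers. In cDC1 Ctsh and Lamp1 were past the fold (2 of 21, background 3.62%), at 1.57-fold (1.26 to 1.98) in WT and 1.70-fold (1.25 to 2.33) in Nr4a1-/- for Ctsh and 2.32-fold (1.40 to 4.02) in WT and 1.70-fold (0.914 to 3.18) in Nr4a1-/- for Lamp1, which was not past the fold by marker assignment. Macrophage markers in cDC1 summed to 244 and 246 CPM in WT control and laser, and 174 and 727 CPM in Nr4a1-/- control and laser, and their part was not tested. Non-classical monocytes had a WT pair only, in which 4 of 36 members were higher and 0 lower, beside 6.09% and 6.38% of all genes.

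In T cells, 6 of 30 members with at least 20 UMIs were higher in both genotypes, against 3.86% of all genes, namely Ctsb, Lgmn, Ctsz, Ctsa, Atp6v1a and Psap. Ctsb was at 46.2, 135, 47.9 and 156 CPM, a ratio of 2.93-fold (2.45 to 3.52) in WT and 3.26-fold (2.42 to 4.38) in Nr4a1-/-, and Lgmn was 3.11-fold (2.12 to 4.66) in WT and 2.02-fold (0.980 to 3.99) in Nr4a1-/-. Both laser libraries lay above both controls for Ctsb. The ratio of Ctsz was 1.78-fold (1.33 to 2.40) in WT and 2.16-fold (1.28 to 3.55) in Nr4a1-/- and that of Psap 1.5-fold (1.29 to 1.74) in WT and 2.32-fold (1.78 to 3.00) in Nr4a1-/-. Ctsa was 1.73-fold (1.37 to 2.21) in WT and 1.53-fold (0.863 to 2.61) in Nr4a1-/- and Atp6v1a 1.68-fold (1.26 to 2.26) in WT and 1.59-fold (0.944 to 2.59) in Nr4a1-/-, with intervals that reach below 1 in Nr4a1-/-. With TMM-scaled totals, and also without the cells scored highest as doublets, 3 members were past the fold. The markers of macrophages moved the same way, at 344 and 717 CPM in WT control and laser, and 288 and 1001 CPM in Nr4a1-/- control and laser, as did those of MDM-B, at 40.4 and 130.2 CPM in WT control and laser, and 25.1 and 232 CPM in Nr4a1-/- control and laser, and their part was not tested. Acp5 was lower with laser in both genotypes. It was at 177, 118, 170.2 and 103 CPM, a ratio of 0.665-fold (0.588 to 0.752) in WT and 0.607-fold (0.451 to 0.804) in Nr4a1-/-, against a background of 1.37% for genes lower in both. That call was lost without the cells scored highest as doublets and by marker assignment, where the WT ratio fell short of the fold. Asah1 went opposite ways, at 1.85-fold (1.27 to 2.73) in WT and 0.629-fold (0.191 to 1.63) in Nr4a1-/-. In B cells Ctsb and Grn were higher (2 of 31, background 0.717%), at 3.14-fold (2.47 to 4.02) in WT and 1.62-fold (0.909 to 2.75) in Nr4a1-/- and 1.93-fold (1.26 to 2.96) in WT and 3.20-fold (1.40 to 6.88) in Nr4a1-/-, and Gla was lower, at 0.518-fold (0.300 to 0.855) in WT and 0.266-fold (0.0314 to 1.02) in Nr4a1-/-, beside 1.34% of all genes. With TMM-scaled totals Ctsb in B cells was not past the fold. The macrophage markers in B cells summed to 514 and 765 CPM in WT control and laser, and 630.2 and 692 CPM in Nr4a1-/- control and laser, those of MDM-B to 14.4 and 154 CPM in WT control and laser, and 11.3 and 59.5 CPM in Nr4a1-/- control and laser, and their part was not tested. NK cells had no member past the fold in both genotypes (0 of 21, background 0.513%), and their macrophage marker sum was 146 and 210.1 CPM in WT control and laser, and 107 and 152 CPM in Nr4a1-/- control and laser.

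By gene, Grn was past the fold upward in both genotypes in 6 of the 12 lineages, Cd63 in 5, and Cd68, Ctsb, Ctsd and Lipa in 3 each. The share of all genes past the fold in as many lineages was not computed, and the lineages come from the same libraries. With TMM-scaled totals Grn was lost in microglia and Bmp2 macrophages and gained in resident and Ms4a7 macrophages. By marker assignment it was lost in microglia and neutrophils and gained in resident macrophages. The members lower in both were Gla, in Bmp2 macrophages and B cells, and Acp5, in T cells. No member was lower in both genotypes in the other 9 lineages. The share of all genes lower in both was 5.1% in microglia, 2.34% in resident macrophages, 16.9% in Ms4a7 macrophages and 1.86% in classical monocytes. It was 5.64% in cDC2, 5.09% in cDC1, 3.25% in Lyz1 Retnla phagocytes, 6.2% in neutrophils and 0.796% in NK cells. Members tested ranged from 21 in cDC1 and NK cells to 37 in microglia, so at most of these shares few or none would be lower. Ms4a7 macrophages had the highest share, with 33 members tested, and no absence was tested against its background.

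The genotypes were compared as ratios of Nr4a1-/- to WT within the control pair and within the laser pair. In the control pair, the genotype and whatever the different leading number in the name of the Nr4a1-/- control table marks cannot be told apart. Few members were past 1.5-fold one way in control and laser alike. Acp5 was lower in Nr4a1-/- microglia (1 of 39 members, near the background of 2.82%), on 23, 35, 7 and 3 UMIs in the 4 libraries, at 0.514-fold (0.186 to 1.24) in the control pair and 0.594-fold (0.117 to 1.88) in the laser pair. Tfeb was higher in Nr4a1-/- resident macrophages (1 of 37 members, background 0.87%), where it was at 18.2, 20.9, 30.4 and 49.6 CPM, a ratio of 1.67-fold (0.836 to 3.26) in the control pair and 2.37-fold (1.27 to 4.36) in the laser pair. Ctsc and Tpp1 were higher in Nr4a1-/- neutrophils (2 of 34 members, background 0.966%), Ctsc at 97.2, 104, 183 and 189 CPM, a ratio of 1.88-fold (1.40 to 2.51) in the control pair and 1.83-fold (1.21 to 2.70) in the laser pair, and Tpp1 at 1.51-fold (0.686 to 3.17) in the control pair and 1.58-fold (0.775 to 3.00) in the laser pair. Hexa was higher in Nr4a1-/- NK cells (1 of 26 members, background 0.446%), at 1.63-fold (0.849 to 3.14) in the control pair and 2.85-fold (1.43 to 5.47) in the laser pair. By marker assignment none of these held but Tfeb: Ctsc in neutrophils turned to 0.630-fold in the laser pair and Hexa in NK cells to 0.928-fold in the control pair, and Acp5 in microglia and Tpp1 in neutrophils each fell short of the fold in 1 pair. Ctsc, Tpp1 and Acp5 were also lost when the members were used in the clustering, and Tpp1 with TMM-scaled totals and without the top-scored doublets. No member passed in both pairs in Bmp2 macrophages, Ms4a7 macrophages, classical monocytes, cDC2, cDC1, Lyz1 Retnla phagocytes, B cells or T cells, with 22 (cDC1) to 36 (Bmp2 macrophages) members tested. There, the shares of all genes higher in both ran from 0.398% to 1.42%, and of those lower in both from 0.919% to 3.26%.

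Past the fold in opposite directions in the control and laser pairs were 5 members, counted over all lineages compared. The share of all genes that did so was not computed, so this count has no background beside it. Glb1 was 0.595-fold (0.263 to 1.26) in the control pair and 1.99-fold (0.808 to 4.50) in the laser pair in Bmp2 macrophages. Mitf was 1.54-fold (0.843 to 2.89) in the control pair and 0.479-fold (0.254 to 0.836) in the laser pair in cDC2. Tfeb was 0.513-fold (0.209 to 1.15) in the control pair and 1.72-fold (0.732 to 3.72) in the laser pair in Lyz1 Retnla phagocytes. Acp5 was 0.352-fold (0.0905 to 0.989) in the control pair and 2.82-fold (1.46 to 5.28) in the laser pair in neutrophils, and Ctsl was 2.30-fold (1.41 to 3.79) in the control pair and 0.363-fold (0.129 to 0.823) in the laser pair in B cells. These rest on few UMIs, for example 30, 84, 43 and 6 for Ctsl in B cells in the 4 libraries.

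The lineages that reached 20 cells only in the laser libraries had 1 pair of libraries each. In WT control and Nr4a1-/- control they held 19 and 4 cells (MDM-A), 11 and 4 (MDM-B) and 5 and 6 (migratory DCs). In MDM-B, 0 of 40 members were higher and 2 lower in Nr4a1-/- than in WT, beside 4.39% and 13.4% of all genes, and in MDM-A 1 of 40 was higher and 2 lower, beside 11.5% and 14.9%. Ctsd, for instance, was at 5219 CPM in WT laser and 5195 CPM in Nr4a1-/- laser in MDM-B, and Atp6v0d2 at 121 CPM in WT laser and 135 CPM in Nr4a1-/- laser. Migratory DCs had more members past the fold, with 18 of 30 members higher and 1 lower in Nr4a1-/-, beside 13% and 20.4% of all genes. That pair rests on 53 cells in WT and 23 in Nr4a1-/-, and the macrophage markers summed to 798 CPM in WT and 3061 CPM in Nr4a1-/-, and their part was not tested.

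Antibody tags gave a protein readout of CD107a, the product of Lamp1, and of CD68. Each is given as tag UMIs per 10000 UMIs of all tags in the lineage and library, on cells stained at the surface. CD107a was 2.56, 76.1, 7.26 and 35.9 per 10000 in microglia in the same order of libraries, 1.95, 70.0, 6.66 and 34.0 in resident macrophages and 0.828, 19.9, 5.83 and 30.1 in classical monocytes. In MDM-B it was 56.4 in WT laser and 40.8 in Nr4a1-/- laser. Both laser libraries lay above both control libraries in each of these lineages with 4 libraries. The same held for cells with few lysosomal transcripts: CD107a was 2.89, 51.5, 10.7 and 27.9 in B cells, 1.28, 27.1, 2.99 and 17.9 in T cells and 0.597, 21.6, 2.89 and 19.5 in NK cells. Single cells held up to 57.6% of the tag's UMIs in a B cell library, and without the highest cell of each library B cells were at 1.77, 48.3, 4.62 and 17.3 and microglia at 1.77, 67.4, 4.32 and 27.4, with the same order of laser and control. Lamp1 RNA in microglia was at 599.7, 639, 700.0 and 622 CPM, a ratio of 1.06-fold (0.996 to 1.14) in WT and 0.888-fold (0.778 to 1.01) in Nr4a1-/-, and its ratio in B cells was 0.984-fold (0.817 to 1.18) in WT and 1.19-fold (0.819 to 1.69) in Nr4a1-/-. The CD107a tag thus differed between laser and control libraries by more than its transcript in microglia and in B cells. By laser ratio it ranked 2 in WT and 3 in Nr4a1-/-, among 86 tags with enough UMIs in B cells and 85 in T cells. Tags at least 2-fold higher in both genotypes numbered 1 in B cells and 8 in T cells. With 1 tag library per condition, laser and the staining of a library cannot be told apart. The tag was read at the surface and the transcript in whole cells.

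CD68 is mostly inside the cell, and its tag did not follow laser in one direction. It was 41.4, 64.8, 47.4 and 38.9 per 10000 in microglia and 25.0, 35.8, 47.1 and 25.5 in B cells, where the transcript was at 3.97, 10.5, 6.86 and 3.13 CPM. In resident macrophages it was 15.2, 131, 22.7 and 28.0, and 1 cell held 77.8% of the tag's UMIs in WT laser. Without that cell the value was 29.6. In MDM-B it was 118 in WT laser and 38.5 in Nr4a1-/- laser, and 37.0 in WT laser without 1 cell that held 69.0%. Each B cell value lay below that of microglia in the same library, closest in Nr4a1-/- control, where 1 B cell held 45.2% of the UMIs. Without the highest cell of each library B cells were at 19, 32.8, 26.3 and 18.9 and microglia at 35.9, 61.8, 45.1 and 36.0. Classical monocytes were then at 12.1, 10.8, 20.2 and 24.6.

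**Figure D5:**
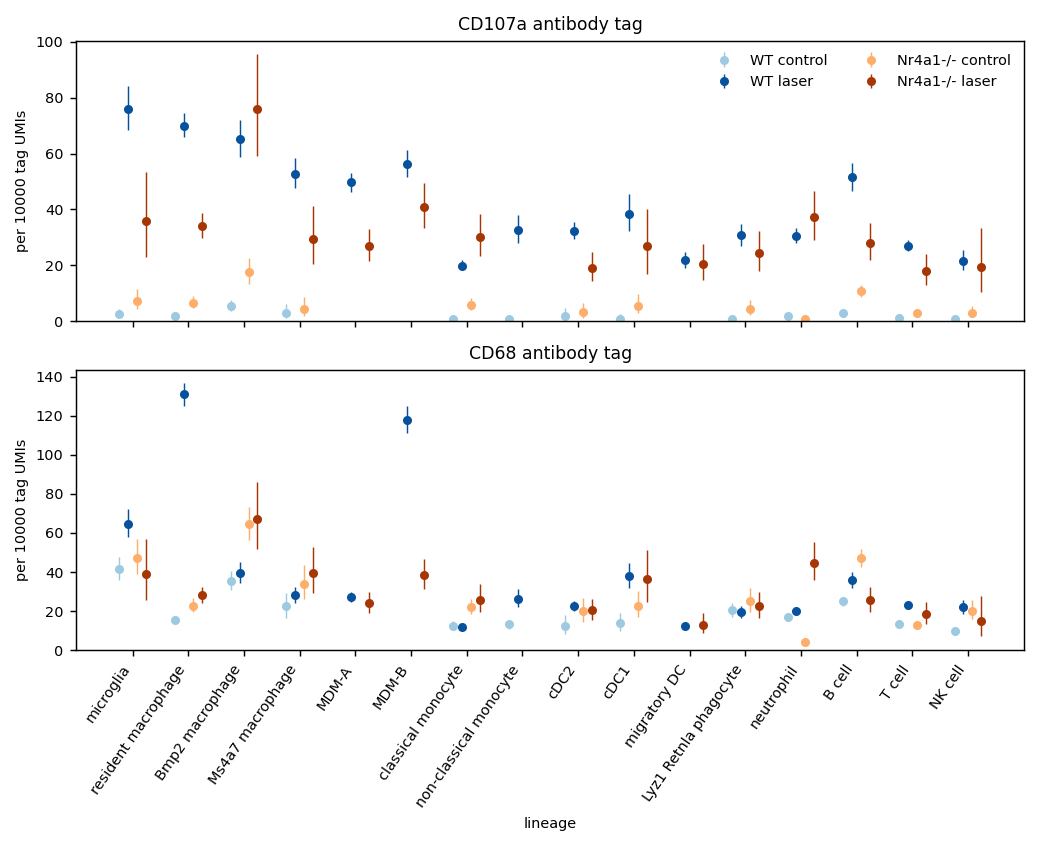
CD107a (upper panel) and CD68 (lower panel) antibody tags per 10000 tag UMIs (vertical axes) in each lineage (horizontal axis), with 1 point per library and exact 95% Poisson intervals. CD107a reaches 17.5 in the control libraries (Bmp2 macrophages, Nr4a1-/- control) and 76.1 in the laser libraries (microglia, WT laser), and CD68 has single high points in WT laser.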

How the data were processed

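Single-cell RNA and antibody tag sequencing of CD45+ ocular cells gave 4 RNA libraries, 1 per condition, and 4 tag libraries of the same cells. According to the submitters' processing notes and the file headers, Cell Ranger 7.0.1 was used with mm10, and the tables that the authors deposited are cell-filtered and hold UMI counts of genes and tags per cell, without normalization. The labels name 3′ kit chemistry that differs from the published methods, and the chemistry does not enter the values used here. Groups came from the sample titles. Laser libraries held 38052948 (WT) and 7848548 (Nr4a1-/-) UMIs and control libraries 24822857 (WT) and 13577173 (Nr4a1-/-), a depth which sets the width of the exact 95% intervals, and these cover counting error only.

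Of 11624 barcodes, 11223 passed the published filter (200 to 5000 genes with a UMI, and no more than 15% of UMIs mitochondrial). The upper limit on genes is the study's step against doublets, and removing the 265 cells scored highest as doublets was an alternative. Clustering followed the published steps in Seurat 5.3.0 (R 4.3.3) with reciprocal principal component integration, weighted nearest neighbors on 19 RNA dimensions (21 for mononuclear phagocytes) and 12 tag dimensions, and resolution 0.4, without the 41 members, 39 further lysosomal genes and 2 tags. UMIs were summed per lineage and library where a lineage had at least 20 cells. Lineages were compared with edgeR 4.0.16 (TMM, filterByExpr, quasi-likelihood test, lineage and library terms, 56 sums, 37 residual degrees of freedom, Benjamini-Hochberg adjustment), tested on simulated data first. The study's own test over cells was not used, since cells are not replicates. DESeq2 1.42.0 was an alternative. The comparisons of Ms4a7 macrophages, migratory DCs and Lyz1 Retnla phagocytes were added after the clusters were seen. Laser and genotype were described as ratios of CPM with no p-value, and median log2 ratios had 0.5 added to counts. Promoter windows were RefSeq's, GRCm38.p6, the build of the deposited files. The other alternatives were DESeq2 size factors, no filter on low counts, TMM-scaled totals, clustering with the members, assigning each cell by its markers, a mitochondrial limit of 10% and leaving out each library. Python 3.11.15, scipy 1.17.1, numpy 2.4.6, pandas 2.3.3 and matplotlib 3.10.9 were used.

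The members and lists were chosen with earlier results of these data known. Named are up to 4 members and 3 further genes per direction with the largest called change in a comparison, members past 1.5-fold in both pairs (up to 6 per lineage ranked by the smaller change) or in opposite directions, the 5 widest and 5 narrowest spans, and Cd68 and Lamp1 for the tags. 1 further gene that the rule names is not reported here.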

Additional observations from a re-analysis of the deposited data

Results flagged for a closer look

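The ratio of Nr4a1-/- to WT went opposite ways in the control and laser pairs, with neither 95% interval reaching 1, for 2 members. Ctsl in B cells was 2.30-fold (1.41 to 3.79, 43 against 30 UMIs) in the control pair and 0.363-fold (0.129 to 0.823, 6 against 84 UMIs) in the laser pair. Acp5 in neutrophils was 0.352-fold (0.0905 to 0.989, 4 against 33 UMIs) in the control pair and 2.82-fold (1.46 to 5.28, 17 against 30 UMIs) in the laser pair. The difference between the pairs was not tested, since each condition was 1 library, and the intervals cover counting error only. The tables of the control pair also differ in the leading number of their names, and what it marks cannot be told apart from the genotype there. The share of all genes that meet the same rule was not computed.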

How the results depend on the processing

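No paired analysis was possible because each condition had 1 RNA library, so the replicate number 1 pairs nothing, and the library term of the lineage comparisons already holds what the lineages of a library share. Values are counts of members, as reported and then under the alternative, and the cause was not tested unless stated. In the comparisons with classical monocytes, DESeq2 gave 2 lower in Ms4a7 macrophages (4) and 5 lower in Lyz1 Retnla phagocytes (9). DESeq2 size factors gave 5 lower in Lyz1 Retnla phagocytes (9) and 0 in MDM-B (1). No filter on low counts gave 5 in Lyz1 Retnla phagocytes (9), 0 in MDM-B (1) and 0 in MDM-A (1). Clustering with the members gave 7 lower in Bmp2 macrophages (4), 5 lower in Lyz1 Retnla phagocytes (9), 1 higher in cDC2 (2) and 4 higher in non-classical monocytes (2). Assigning each cell by its markers gave 2 lower in MDM-A (1), 0 lower in MDM-B (1), 6 higher in non-classical monocytes (2), 1 higher (2) and 12 lower (21) in cDC2, and 23 higher in MDM-B against MDM-A (10). Leaving out each library in turn, so that fewer samples were fitted and a lineage with a lone library was assumed to vary like the others, gave 4 to 7 lower in Lyz1 Retnla phagocytes (9), 0 to 1 lower in MDM-A and in MDM-B (1 each), 1 to 3 lower in Ms4a7 macrophages (4), 1 to 2 higher in cDC2 and in non-classical monocytes (2 each), 7 to 14 lower in non-classical monocytes (14), 9 to 19 lower in migratory DCs (19) and, in MDM-B against MDM-A, 3 to 12 higher (10) and 0 to 1 lower (1).

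For laser, members past the fold upward in both genotypes under TMM-scaled totals were 2 in microglia (4), 0 in Bmp2 macrophages (2), 6 in Ms4a7 macrophages (2), 3 in T cells (6), 3 in neutrophils (7), 5 in resident macrophages (2) and 1 in B cells (2). TMM scaling moved the median of all genes by over 0.1 in 24 of 52 pairs, from -0.50 to 0.17. Clustering with the members gave 20 in neutrophils (7), 1 in Ms4a7 macrophages (2) and 1 lower in microglia (0). The marker assignment gave 6 in resident macrophages (2), 11 in neutrophils (7), 10 higher (6) and 0 lower (1) in T cells, 5 in cDC2 (10), 1 in classical monocytes (2), 5 in B cells (2), 2 in NK cells (0), 1 in cDC1 (2) and 1 lower in microglia (0). A mitochondrial limit of 10% gave 1 in Bmp2 macrophages (2). Without the top-scored doublets there were 4 in classical monocytes (2), and 3 higher (6) and 0 lower (1) in T cells. For genotype, members past the fold in both pairs were 1 higher in neutrophils (2) and 1 lower in B cells (0) with TMM-scaled totals, 0 lower in microglia (1) and 1 higher in neutrophils (2) when clustered with the members, 1 higher in neutrophils (2) without top-scored doublets, and, by marker assignment, 1 higher in B cells (0), 0 in NK cells (1), 1 in cDC2 (0), 0 in neutrophils (2) and 0 lower in microglia (1). By marker assignment 3 ratios reversed: Lipa in cDC2 (Nr4a1-/- laser to control) was 0.886 (1.89), Hexa in NK cells (control pair) 0.928 (1.63) and Ctsc in neutrophils (laser pair) 0.630 (1.83). For single named genes, 165 of 172 lineage calls kept their side of the threshold by DESeq2 and 142 to 164 when a library was left out. Ctsk, Atp6v0d2, Mcoln1 and Ctsf had the fewest UMIs, and differences in them are the least precise.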
